A study of Mus musculus with 3 samples.

Results

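Histone genes fall into sets of very different design, and this account describes the open chromatin found at them in cells of the growing mouse tooth root. The genes were taken from the RefSeq annotation of GRCm38 by symbol: protein-coding genes of the H1, H2A, H2B, H3 and H4 families, 78 of 21887 protein-coding genes. The open chromatin came from ATAC-seq, in which Tn5 transposase cuts accessible DNA, and is given as 13500 windows of 201 bp pooled over 3 libraries, of which 50 lay at a histone gene. A gene was counted as having a window when a window's midpoint lay within 1 kb of either of its annotated ends. Neither the symbols nor the distance rule uses a measured level.

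The 3 libraries were made from C57BL/6 first molars, apical part, at postnatal day 7.5, each from 5000 cells freed with collagenase. They comprised 2 libraries labelled Arid1a fl/fl and 1 labelled Gli1-CreER;Arid1a fl/fl, and all samples carry the same note of tamoxifen, 1.5 mg per 10 g body weight at postnatal day 3.5. Arid1a encodes part of the SWI/SNF remodelling machinery, and the Gli1-driven CreER can delete it in cells that express Gli1 when tamoxifen acts, a loss their descendants inherit, so cells outside these lineages keep the gene. No source used here states whether a library pooled animals or how regions entered the list. Values per library were not analysed here, so there is no comparison of genotypes, no read depth and no error between replicates, and a missing window does not show closed chromatin. By the same distance rule, a window lay at 10 of 20 dental mesenchyme markers, among them Msx1 and Barx1 but not Pax9, Lhx6 or Lhx8. The counts were 1 of 12 for dental epithelium, 1 of 12 for immune cells, 3 of 10 for endothelium and 3 of 10 for glia and neurons, beside 46.6% of all protein-coding genes.

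Nucleosomes wrap DNA around the core histones H2A, H2B, H3 and H4, and the linker histone H1 binds where DNA enters and leaves. Replication-dependent histone genes lie in clusters, have no introns as a rule, end their mRNA in a stem-loop instead of a poly(A) tail, and are transcribed in S phase when new DNA must be packed. Variant histones such as H3.3 and H2A.Z come from lone genes that are also active outside S phase, and replace the canonical proteins at chosen places.

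Of the 78 histone genes, 58 (74.4%) had a window at an end, beside 46.6% of all protein-coding genes. The replication-dependent genes carried most of them, with 52 of 65 (80%), while the variant genes stood at 6 of 13 (46.2%), close to the background. The variant share depends on the genes counted. The 8 germline genes named below, chosen after their values were seen, all lacked a window. Without them, 52 of 62 replication-dependent genes (83.9%) and 6 of 8 variants (75%) had one. All classes of replication-dependent genes took part: 5 of 6 linker H1 genes, 14 of 17 H2A genes, 14 of 17 H2B genes, 9 of 12 H3 genes and 10 of 13 H4 genes. Because neighbouring histone genes lie so close, 17 windows served 2 of these genes and 1 window served 3, and the 58 genes are not independent counts. Only 1 of the 50 windows also lay at another protein-coding gene, Gcat beside H1f0.

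**Figure D1:**
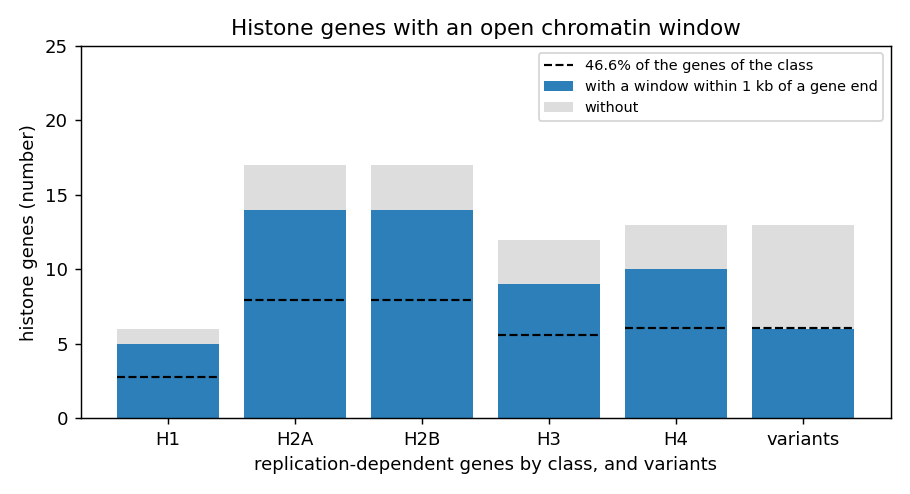
Number of histone genes (vertical axis) in each replication-dependent class and among variants, with (blue) and without (grey) a window within 1 kb of a gene end. Dashed lines mark 46.6% of each class, the share over all protein-coding genes. The 5 replication-dependent classes stand above it, and the variants (6 of 13) at it. Without germline genes, 6 of 8 variants had a window.

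The windows of replication-dependent genes were poor in G and C and in CpG for windows at gene ends. Their 43 windows had a median GC content of 54.2% (range 35.3 to 70.6), against 68.2% over the 9078 windows at protein-coding gene ends, and 42 of the 43 lay below that median. CpG dinucleotides numbered 5.5 per 100 steps between neighbouring bases (range 0.5 to 12.5), against 10 over all windows at gene ends. The 7 windows of variant genes were of the other kind, with a median GC content of 71.1% (range 60.2 to 78.1) and 13.5 CpG per 100 steps (range 7 to 15.5). In GC, 33 of the 43 replication-dependent windows lay below the lowest variant window, and the other 10 overlapped with the variants.

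**Figure D2:**
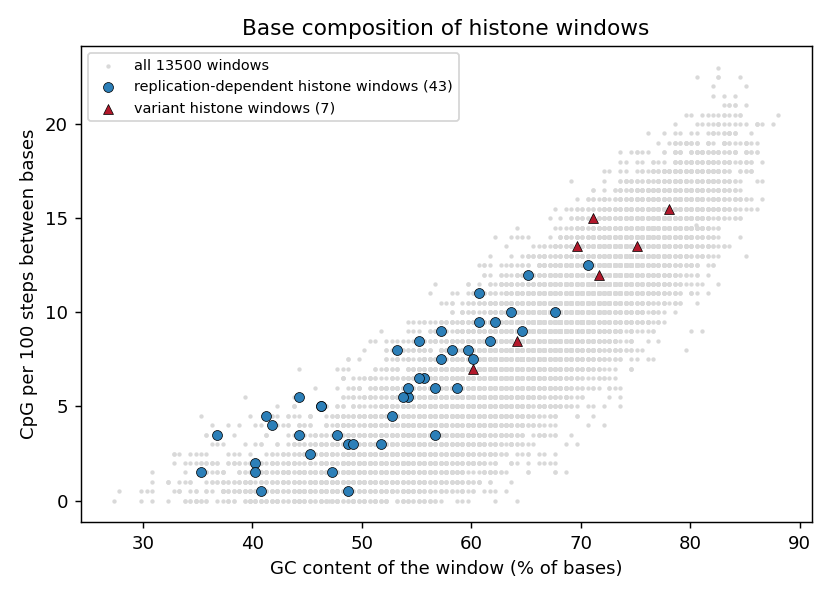
GC content (horizontal axis, percent of bases) against CpG per 100 steps (vertical axis) for all 13500 windows (grey), the 43 windows of replication-dependent histone genes (blue circles) and the 7 of variant genes (red triangles); some points coincide. Replication-dependent windows spread over the lower left, with a median GC of 54.2%, and 5 of the 7 variant windows lie above the 68.2% median of windows at gene ends.

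Between replication-dependent and variant genes, promoter GC differed in the same direction. Unlike the variant windows, the variant promoters, which include genes without a window, had a median below that of protein-coding genes. The RefSeq promoter table of GRCm38.p6, 250 bases before to 50 after each start, held 72 of the 78 genes. Of these, 50 (69.4%) had a window within 1 kb of the start, beside 50.7% of protein-coding genes in that table. Replication-dependent promoters had a median GC content of 45.3% (60 genes) and variant promoters 55.3% (12 genes), beside 57.3% over 17492 protein-coding genes, each taken with its richest promoter. Among all protein-coding genes with a promoter under 50% GC, 11.7% had a window at an end, against 61.4% of those at 50% or more. Of the replication-dependent genes under 50% GC, 38 of 45 (84.4%) had a window, and of those at 50% or more, 9 of 15 (60%). Low-GC promoters thus seldom had a window in this list, and those of replication-dependent histone genes mostly did. The variants under 50% GC had none in 4, and those at 50% or more had 5 of 8. Of the 4, all but H3f3c (H3f4, H2bl1 and H2bfm) are germline genes named below, so GC and germline use were not separated. These shares are descriptions, and no test of the list was made.

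The 6 linker genes called replication-dependent by symbol lie among the other histone genes of chromosome 13. Their windows sat downstream of the start: the midpoint was 73 bp into H1f1, 77 bp into H1f2, 135 bp into H1f3 and 156 bp into H1f4. Their GC contents were 55.2%, 67.7%, 64.7% and 70.6% in that order. H1f5 differed, with its window 1118 bp from the start and 325 bp past the other end, at 41.3% GC. Windows past the finish also lay 314 bp from H1f2 (56.7% GC), 468 bp from H1f3 (41.8% GC) and 336 bp from H1f4 (44.3% GC). Thus 4 of the 5 H1 genes with a window had one there. That of H1f4 is shared with H2bc6 and lay nearer to it, 317 bp from its end and upstream of its start. H1f6, the testis H1t, had no window, the nearest lying 1731 bp away at H4c3.

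H1 promoters carry the AAACACA box, an element known from H1 genes, ahead of a CCAAT box, the binding sequence of NF-Y. AAACACA, searched on both strands in the 250 bases before the start, was found in 5 of 6 H1 promoters (all but H1f1), against 6.25% of all 32851 promoters, with its first base at -122 to -112 from the start. CCAAT was found in 6 of 6, against 33.8%. TATAAA, the letters searched as the TATA box, was found in 4 of 6, against 12.4%. A match at any place in the 250 bases counts, and close variants, such as tatata in H1f2 below, do not. None of the motifs searched contains another. The stretch before the start is shown for H1f2 (chr13:23738682-23738806, plus strand) and H1f4 (chr13:23622559-23622683, minus strand) to place these elements just ahead of the windows; capitals mark the H1 box, the CCAAT box and, in H1f4, the TATA box.
H1f2: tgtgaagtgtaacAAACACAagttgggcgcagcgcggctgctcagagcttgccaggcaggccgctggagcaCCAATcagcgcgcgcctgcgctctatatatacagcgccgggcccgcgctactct
H1f4: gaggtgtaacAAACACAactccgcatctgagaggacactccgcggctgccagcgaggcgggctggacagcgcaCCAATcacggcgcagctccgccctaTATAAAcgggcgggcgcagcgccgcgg
The spacing is alike in both, with the H1 box first and the CCAAT box after it; H1f2 has no TATAAA in this stretch.

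H2A and H2B genes are often arranged head to head, so that 1 stretch of DNA serves both as a promoter. Among genes with a start in the promoter table, 9 such pairs had starts 164 to 281 bp apart (median 180). A window was shared in 7 of the pairs, and in 5 its midpoint lay between the starts: H2ac22 with H2bc22, H2ac12 with H2bc12, H2ac11 with H2bc11, H2ac8 with H2bc8 and H2bc7 with H2ac7. In H2bc13 with H2ac13 it lay 24 bp inside H2ac13, and in H2ac15 with H2bc15 it lay 45 bp inside H2ac15. The GC content of the 7 shared windows ran from 40.3 to 60.7% with a median of 45.3%. The pairs without a window were the testis genes H2bc1 and H2ac1 and the pair H2bc23 and H2ac23.

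As single genes, the H2A set had nearest windows between 24 bp (H2ac13) and 978 bp (H2ac10) from a gene end, with H2ac7 (55 bp) and H2ac22 (109 bp) in the middle. The distant cases rest on the promoter of a neighbour: the window of H2ac10 lay 62 bp from H3c8, and that of H2ac4, 755 bp away, lay 2 bp from H3c2. H2B windows ran from 32 bp (H2bc4) to 421 bp (H2bc18), with H2bc8 (144 bp) and H2bc12 (151 bp) in the middle. Relative to the start, the nearest window was upstream in 11 of 12 H2B genes (median -148 bp) and in 9 of 14 H2A genes (median -32 bp). No H1 gene of 5 had it upstream.

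**Figure D3:**
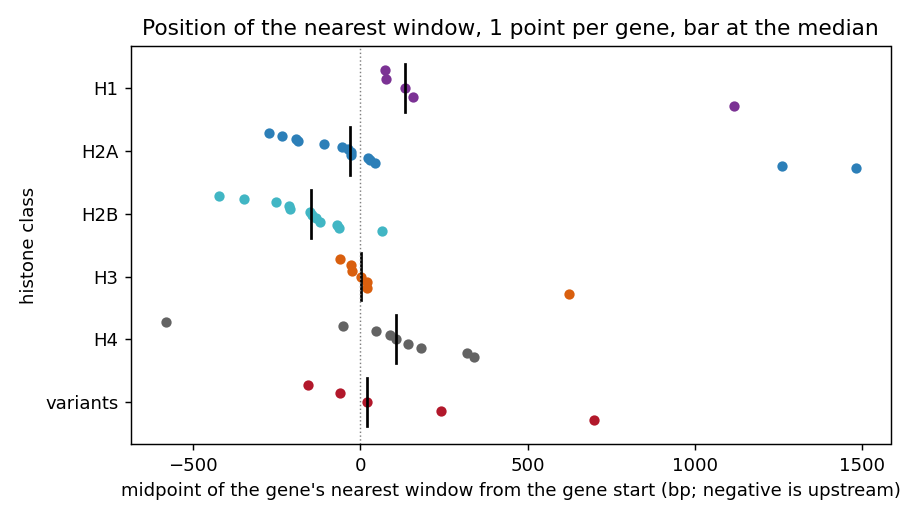
Midpoint of the nearest window relative to the gene start (horizontal axis, bp, negative upstream) for the 52 histone genes with a window and a start in the promoter table, 1 point per gene, by class (vertical axis), with a bar at the median. H2B points lie upstream in 11 of 12 genes, H1 points lie downstream in 5 of 5, and H3 points gather at the start with 6 of 7 within 250 bp.

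The octamer ATTTGCAT, which POU factors such as Oct1 (Pou2f1) bind in H2B promoters, was found on either strand in 7 of 16 H2B promoters and 6 of 17 H2A promoters, against 1.6% of all promoters. The H2A matches all read on the minus strand of the H2A promoter and the H2B matches on the plus strand, so all octamers read away from the H2A gene and along the H2B gene. CCAAT was found in 16 of 16 H2B and 17 of 17 H2A promoters. These counts are not independent, since the promoters of a head-to-head pair overlap. The whole stretch between the starts of H2ac8 and H2bc8 (chr13:23571221-23571399, plus strand, reading toward H2bc8) is shown because its window, at 40.3% GC, is centred between the 2 genes, 36 bp from the start of H2ac8 and 144 bp from that of H2bc8. Capitals mark the CCAAT box on either strand, the octamer and the TATA box.
H2ac8 to H2bc8: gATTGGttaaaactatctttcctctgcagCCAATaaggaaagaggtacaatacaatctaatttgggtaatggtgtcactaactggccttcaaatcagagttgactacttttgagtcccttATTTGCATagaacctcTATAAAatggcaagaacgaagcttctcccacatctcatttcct
The CCAAT boxes lie at the H2A end, and the octamer is followed by TATAAA at the H2B end.

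Most H3 windows lay almost on the start, within 62 bp in 6 of the 7 genes with a window and a start in the promoter table. H3c2 had its window 2 bp from it, H3c10 19 bp, H3c11 21 bp and H3c3 28 bp, the last being the median of the class by distance to a gene end. By the same distance the farthest was H3c7 at 429 bp. From the start, the farthest was H3c13 at 625 bp, which is 124 bp past the finish. GC content ran from 35.3% at H3c1 to 58.2% at H3c6, all below the median of windows at gene ends. CCAAT was found in 8 of 10 H3 promoters and TATAAA in 4 of 10. H3c2 (chr13:23752245-23752344, plus strand) is shown as the promoter best centred under its window, with CCAAT and TATAAA in capitals.
H3c2: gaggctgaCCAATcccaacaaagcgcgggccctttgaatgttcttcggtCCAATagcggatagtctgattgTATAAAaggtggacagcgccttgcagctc
The 3 H3 genes without a window had their nearest one beyond the 1 kb limit. It lay at 1421 bp for H3c14, 1437 bp for H3c4 and 1440 bp for H3c15. Those windows lay at neighbours, in that order H2ac18, the pair H2bc7 and H2ac7, and H2ac19. The farthest gene inside the limit was H2ac10 at 978 bp.

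H4 windows mostly lay inside the gene. The midpoint was downstream of the start in 7 of 9 H4 genes, at 47 bp in H4c6, 88 bp in H4c4, 106 bp in H4c9, 142 bp in H4c2, 182 bp in H4c3, 320 bp in H4c8 and 340 bp in H4f16. H4c1 had it 51 bp upstream. H4c11 had only a window 582 bp upstream, with 0.5 CpG per 100 steps. H4c14, the H4 gene of the chromosome 3 cluster, had the closest window to a gene end, 27 bp. GC content of the 11 windows nearest an H4 gene had a median of 59.7% (range 48.8 to 65.2), above the medians for the other core histones: 53.7% for H3, 48% for H2A and 46% for H2B.

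The proximal H4 promoter is known for site II, which the zinc finger factor Hinfp binds. Its core GGTCCG was found in 9 of 12 H4 promoters, against 6.72% of all promoters, and in 0 of 6 H1, 0 of 17 H2A, 1 of 16 H2B, 1 of 10 H3 and 1 of 12 variant promoters. It was not found in H4c1, H4c2 and H4c8. All 9 matches read in the direction of the gene, with the first base at -47 to -18 from the start and a median of -46. The last bases before the start are shown for H4c3 (chr13:23698459-23698518), H4c6 (chr13:23551669-23551728) and H4c9 (chr13:22041363-22041422), all on the minus strand, with GGTCCG in capitals, because the element sits at the same place in each.
H4c3: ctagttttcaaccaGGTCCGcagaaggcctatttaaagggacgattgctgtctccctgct
H4c6: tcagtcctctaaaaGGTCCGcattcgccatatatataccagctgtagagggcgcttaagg
H4c9: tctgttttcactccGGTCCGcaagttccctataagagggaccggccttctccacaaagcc
A match is a run of letters, not evidence that the factor was bound.

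**Figure D4:**
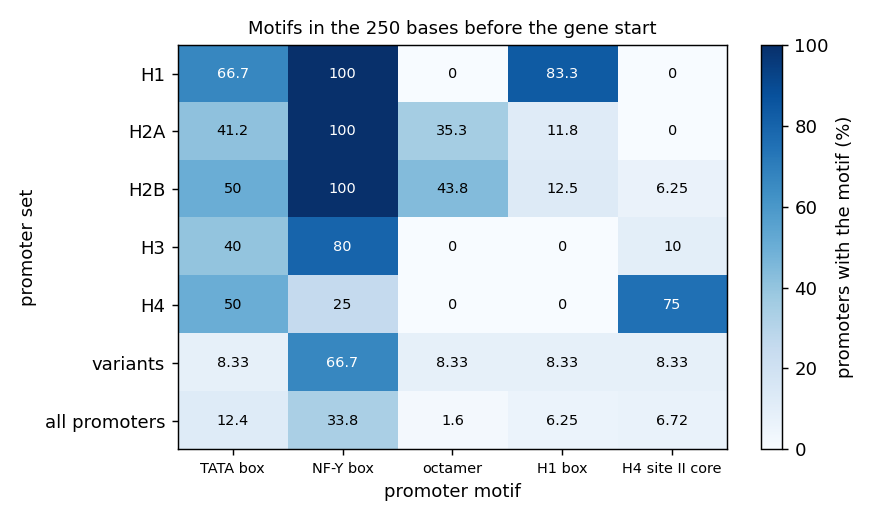
Percent of promoters with each motif (columns) in the 250 bases before the start, for replication-dependent histone classes, variants and all 32851 promoters (rows). TATA box is the exact letters TATAAA on either strand at any place in that stretch. In H4 promoters these matches began at -250 to -16, with a median of -127.5. NF-Y box is CCAAT; it is in 100% of H1, H2A and H2B promoters, the H1 box in 83.3% of H1 promoters and the H4 site II core in 75% of H4 promoters.

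Where a window sat relative to the start went with its base content. The 16 replication-dependent windows centred upstream of the nearest gene's start had a median GC content of 47% (range 36.8 to 62.2), and the 22 centred at or downstream of it 58% (range 40.8 to 70.6). The ranges overlap widely. CpG had medians of 4.25 (range 0.5 to 9.5) and 7 (range 0.5 to 12.5) per 100 steps in the same order, beside the median of 10 for all windows at gene ends. The downstream set includes windows past the finish, such as that of H1f5. Side also went with class. By gene, the nearest window was upstream in 0 of 5 H1, 2 of 9 H4, 3 of 7 H3, 9 of 14 H2A and 11 of 12 H2B genes. Median GC by class was 56.7% for H1, 59.7% for H4, 53.7% for H3, 48% for H2A and 46% for H2B. Side and class were not separated.

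Of the 7 windows at the 6 variants with one, 5 lay above the 68.2% GC median of windows at gene ends, and the other 2 lay at H1f10 and past the finish of H1f0. H2az1, which encodes H2A.Z, had a window 62 bp upstream at 71.6% GC, and H2az2, the other H2A.Z gene, 19 bp downstream at 71.1%. H3f3a, which encodes H3.3, had it 156 bp upstream at 78.1%, the richest of all 50 windows. H2ax, whose protein is phosphorylated at DNA breaks, had it 223 bp from a gene end at 69.7%. The linker variant H1f0, known from differentiated and resting cells, had 2 windows, 240 bp inside its start at 75.1% GC and 348 bp past its finish at 60.2%, and H1f10 had its window inside the gene, 698 bp from the start and 363 bp from the finish, at 64.2%. The promoter of H2az1 (chr3:137864367-137864486, plus strand) is shown for contrast with the replication-dependent promoters; it holds a CCAAT box on each strand and no TATAAA.
H2az1: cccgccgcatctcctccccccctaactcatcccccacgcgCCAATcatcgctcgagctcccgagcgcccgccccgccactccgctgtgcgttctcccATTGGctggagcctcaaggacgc
The stretch is 70% G and C, against 38.5% between H2ac8 and H2bc8.

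The other 7 variants had no window by the rule. H3f3b, the other H3.3 gene, is a matter of annotation: its nearest window was 1752 bp from a gene end but 217 bp downstream of the start in the promoter table, at 71.6% GC. For H3f3c the nearest was 9010 bp away and for H3f4 1542 bp. H1f7 lay 38848 bp from one, H1f8 44709 bp, H2bl1 57751 bp and H2bfm 48533 bp. Members of the list that are known as germline genes, chosen after their values were seen, all lacked a window: the testis genes H1f6, H1f7, H2ac1, H2bc1, H2bl1, H2bfm and H3f4 and the oocyte gene H1f8, 0 of 8. Without them, 58 of 70 histone genes (82.9%) had a window. By kind, these were 52 of 62 replication-dependent genes (83.9%) and 6 of 8 variants (75%).

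The replication-dependent genes were grouped into blocks, in which neighbours lie under 1 Mb apart. On chromosome 3, from H2ac21 to H2bc18 (96219885 to 96270192), 8 of 10 genes had a window, and all 7 windows of the block lay at a histone gene. On chromosome 13, from H4c8 to H2ac1 (23531044 to 23934913), 27 of 31 genes had one, and 24 of 27 windows lay at a histone gene. In the other block of chromosome 13, from H2bc13 to H2bc11 (21715711 to 22043658), 16 of 22 genes had one, and 11 of 14 windows lay at a histone gene. The pair H2bu2 and H3f4 on chromosome 11 had none. Between these 2 genes lies H2aw, a histone gene outside the symbol rule, with a window 108 bp from a gene end. The blocks differed in base content too, with median GC of the histone windows at 52.7% on chromosome 3, 56% in the H4c8 block and 47.3% in the H2bc13 block.

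**Figure D5:**
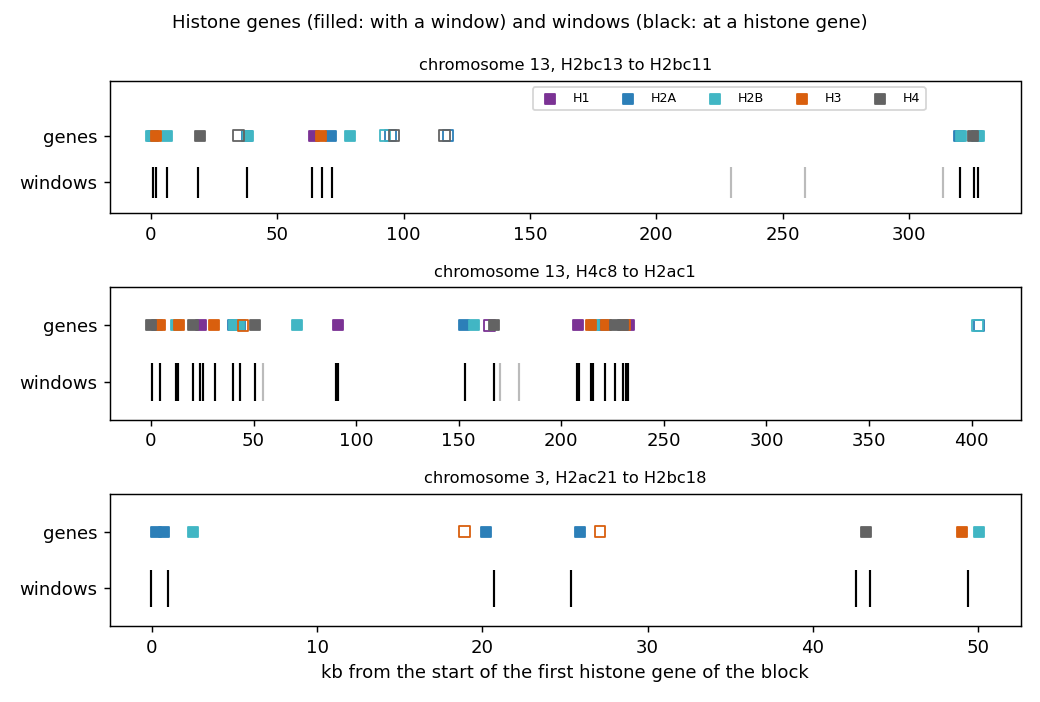
Histone genes (squares at the gene's midpoint, by class, filled where the gene has a window, open where it has none) and windows (bars, black at a histone gene, grey elsewhere) in the 3 larger blocks, by distance in kb from the start of the first histone gene (horizontal axis). In the top block the run of 5 open squares right of the filled genes, over a long stretch without windows, is H2bc23, H2ac23, H4c17, H4c18 and H2ac24; the right edge of the middle block shows H2bc1 and H2ac1 without a window. The annotated H2bc22 and H2bc6 are 14079 and 37455 bp long, so their squares stand away from the windows at their ends.

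Within the H2bc13 block a stretch of 157833 bp held no window, between the window shared by H2ac22 and H2bc22 and one near Zfp184. It holds 5 histone genes without a window: H2bc23, H2ac23, H4c17, H4c18 and H2ac24. Their promoters were near-copies of others. Of the words of 31 bases in the promoter, 100% for H2bc23, 91.5% for H2ac23, 94.4% for H4c17 and for H4c18, and 75.2% for H2ac24 were also found in a promoter elsewhere in the table. Of the replication-dependent genes, 9 had 50% or more of such words elsewhere, and 2 of those (22.2%) had a window, the mirrored pair H2ac18 and H2ac19 with 70% each. H3c14 and H3c15, with 83% each and no window, complete that set. Where no word was found elsewhere, 42 of 47 genes (89.4%) had a window, and with some but under 50%, 3 of 4. This split was chosen after the values were seen. No source used here states how reads from near-copies were placed, and its part in the missing windows was not tested.

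Sites of the Plagl1 motif, the sequence match searched in every window by the depositors, lay in 9 of the 50 histone windows. Plagl1 (Zac1) is the zinc finger factor that the series places between Arid1a and hedgehog signalling. Of the 58 histone genes with a window, 13 (22.4%) had a site in it, beside 33.4% of all protein-coding genes with a window. The exact Clopper-Pearson 95% interval of that share was 12.5 to 35.3%. It treats genes as independent, which genes sharing a window are not, so no conclusion is drawn from it. With only sites at or above the median score counted, the shares were 15.5% and 18.5%. Counted by window, 18% held a site, beside 32.8% of windows at protein-coding gene ends. The H3 replication-dependent genes had 0 of 9, H4 genes 1 of 10, H1 genes 1 of 5, H2B genes 3 of 14 and H2A genes 6 of 14. These counts reuse windows: each H2B site is shared with an H2A gene, and that of H2ac20 lies in a window nearer to H2ac21. With each window given to its nearest gene, 4 of 10 H2A windows and 1 of 6 H2B windows held a site. By block, the sites fell in 3 of 11 windows of the H2bc13 block, 3 of 7 on chromosome 3 and 1 of 24 of the H4c8 block.

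The 10 sites are shown because they are all that the histone windows hold, each on its motif strand and with the whole site in capitals. The list runs from the highest score to the lowest among 5753 sites in all windows.
H2ac12 and H2bc12, chr13:22035648-22035657: AAGGAGGCCC
H3f3a, chr1:180813797-180813806: CGAGGGGCCC
H4c14, chr3:96262531-96262540: TGTGGGGCCA
H2ac11 and H2bc11, chr13:22043161-22043170: AAAGAGGCCT
H2ac19, chr3:96240594-96240603: CAAGAGGGCC
H2ac22 and H2bc22, chr13:21787434-21787443: AATGAGGCTT
H2ac20 and H2ac21, chr3:96219935-96219944: AAGGAGGCAA
H3f3a, chr1:180813809-180813818: CGAGGGGCCG
H1f2, chr13:23738882-23738891: CAGGGGGCGC
H2az2, chr11:6444429-6444438: CCCGGGGCCC
The highest score was 6.98 at H2ac12 and H2bc12, above 95% of all sites, followed by 6.82 at H3f3a, 6.81 at H4c14 and 6.72 at H2ac11 and H2bc11. H2ac19 had 6.25, H2ac22 and H2bc22 6.02, and H2ac20 and H2ac21 5.72. The other site of H3f3a scored 5.67. The lowest were H1f2 at 5.52 and H2az2 at 5.52, above 4.2% and 0.71% of all sites, where the lowest score in the list is 5.51. The site letters of H2az2 were the most common of these, with 117 sites in all windows, and those of H1f2 had 84.

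Sites fell between the starts in 3 head-to-head pairs. The site of H2ac12 and H2bc12 lay at -9 bp from the start of H2ac12 and -169 bp from that of H2bc12. That of H2ac11 and H2bc11 lay at -33 bp from the start of H2bc11, and that of H2ac22 and H2bc22 at -50 bp from the start of H2bc22. The stretch between H2ac12 and H2bc12 (chr13:22035644-22035820, plus strand) and the end of that before H2bc11 (chr13:22043098-22043197, plus strand) are shown with the site in capitals; in the former the octamer is in capitals too.
H2ac12 to H2bc12: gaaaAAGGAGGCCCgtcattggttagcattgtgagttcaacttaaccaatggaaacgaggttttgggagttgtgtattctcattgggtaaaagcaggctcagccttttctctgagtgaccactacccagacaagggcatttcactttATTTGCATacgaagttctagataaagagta
Before H2bc11: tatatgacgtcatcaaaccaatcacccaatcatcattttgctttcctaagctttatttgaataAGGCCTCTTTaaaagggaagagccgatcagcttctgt
The site at H2ac12 lies at the H2A end, away from the octamer at the H2B end. At H2bc11 the motif strand is the minus strand, so the capitals read as its complement in reverse.

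Genes that serve histones in other ways were covered by windows almost throughout. Of 30 histone chaperones, which carry histones to and from DNA, 28 (93.3%) had a window, beside 46.6% of all protein-coding genes. They include Asf1a and Asf1b, which hand H3-H4 to other chaperones, Anp32e, which removes H2A.Z, Atrx, a remodeller that works with Daxx on H3.3, the Hira complex subunit Cabin1, and Chaf1a, a CAF-1 subunit that acts at replication forks. Nasp, an H1 and H3 chaperone, and Npm1 were without one. Of 25 genes for the transcription and processing of histone mRNA, 24 (96%) had a window, and Nfyc, an NF-Y subunit, did not. Npat, the cyclin E-Cdk2 substrate that activates histone clusters, had it 117 bp from a gene end at 62.7% GC, Slbp, the stem-loop binding protein, 115 bp at 67.7%, Hinfp 38 bp at 66.2%, and Lsm11, of the U7 particle that cuts histone mRNA, 241 bp at 72.1%. The nearest windows of the chaperones had a median GC content of 66.2% and those of the mRNA genes 67.7%, close to the median of all windows at gene ends and apart from the 54.2% of the replication-dependent histone windows. For GC-rich genes the background is higher: 61.4% of protein-coding genes with a promoter of 50% GC or more had a window. Promoter GC of the chaperone and mRNA genes was not compared.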

How the data were processed

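ATAC-seq of 3 libraries was analysed through 2 deposited tables that pool them. Tools named are MACS2 2.1.1, Bowtie2 2.3.5, edgeR, cutadapt 1.18, FastQC 0.11.8, Picard and bedtools with mm10, per the submitters' processing notes. HOMER searched 1 motif in a union peak list, per the file headers. The deposited GC value is a fraction of bases and the deposited CpG value a ratio of CpG to steps between bases; both were multiplied to percent. The deposited site score is HOMER's log-odds, base not stated. The other deposited column, a peak score, is 0 throughout and was not used. Positions count from 1: 1670 of 1670 windows and 1783 of 1783 sites inside RefSeq promoters (GRCm38.p6) matched in base content or letters.

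Symbols H1f1 to H1f6, H2ac, H2bc, H2bu, H3c, H4c and H4f were called replication-dependent and the rest variants. By this rule the testis genes H1f6, H2ac1 and H2bc1 count as replication-dependent, whatever the timing of their transcription. Windows were assigned with Python 3.11.15, pandas 2.3.3 and numpy 2.4.6, tested on simulated windows. Genes and windows are not replicates, so no test was made. Members and lists were chosen with earlier results of these data known; motifs, promoter words and germline genes after seeing the files. The rule names members with a site, all variants, sharers of a window, the nearest, middle and farthest of each class, and genes without a window where 5 or fewer. Chaperone and mRNA genes with a window and the other class members were named after their values were seen.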

Additional observations from a re-analysis of the deposited data

How the results depend on the processing

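No paired analysis was possible because the tables hold no value per library, and for the same reason no library could be left out. A share was read as moved when it left the exact Clopper-Pearson 95% interval of the value above, which covers counting error only. That interval treats genes that share a window as independent, so it serves as a yardstick and not as a test. With each window given only to the gene with the nearest end, 59% of histone genes (46 of 78) and 61.5% of replication-dependent genes (40 of 65) had a window, beside 41% of all protein-coding genes; by construction a shared window then counts for 1 gene. Without the germline genes, an alternative added after the data were seen, variants stood at 75%. The chaperones reached 100% within 3 kb and 100% when windows inside the gene counted, and the mRNA genes 100% by the latter. The share with a Plagl1 site and the other shares stayed within their intervals at 0.5 kb, 3 kb and in the other alternatives run. For the 13 variants the interval ran from 19.2 to 74.9%. It held 61.5% at 3 kb and 53.8% with windows inside the gene counted, and so wide an interval hardly registers a move. The medians of GC, CpG and distance stayed within 95% intervals taken from the ordered values of the 50 windows. Those intervals treat windows as independent. Depth is unknown, so a missing window sets no limit on openness.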

Other observations

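Other histone genes outside the symbol rule gave a mixed picture. Of 9 matched, 3 had a window: Cenpa, the centromeric H3 variant (92 bp from a gene end, 49.8% GC), H2aw (108 bp, 56.2% GC) and Macroh2a1, which encodes macroH2A (246 bp, 83.1% GC, with 3 Plagl1 sites of best score 7.02). Those without were H2al1m, H2al2a, H2al3, H2ap, Hils1 and Macroh2a2.

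Other genes lie among the chromosome 13 histone genes. In the H2bc13 block 1 of 4 other protein-coding genes had a window, Zfp184, and H4bc24, Pom121l2 and Prss16 had none. H4bc24 has a histone-like symbol that the rule does not cover, and it was not in the list above. In the H4c8 block 1 of 6 had a window, Hfe, and the phosphate transporter genes Slc17a1 to Slc17a4 and Trim38 had none. Over all protein-coding genes the share was 46.6%, and counts of 4 and 6 genes are too small to set against it. These genes were looked at after the histone values were seen, and no test was made.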
